A study of Mus musculus with 10 samples.

Results

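The glucocorticoid receptor and 9 genes known as its targets or partners, Nr3c1, Hsd11b1, Fkbp5, Tsc22d3, Klf9, Sgk1, Ddit4, Cdkn1a, Mt1 and Mt2, were examined in macrophages of the small intestine 24 h after experimental stroke. These 10 genes were chosen by name from what is known of glucocorticoid signalling, when earlier results of these data were already known. All 10 were among the 17279 genes of the count table. Macrophages expressing CX3CR1-GFP had been isolated by fluorescence-activated sorting from the lamina propria of the small intestine of C57BL6/J mice, and RNA sequencing gave 5 libraries from sham-operated mice and 5 from mice with permanent middle cerebral artery occlusion (pMCAO). Both groups therefore shared the genotype, the reporter, the sort and the 24 h interval, and differed in the occlusion of the artery. The labels call the libraries biological replicates, but replicate 1 of each group carries the word pool in its library name, and the number of animals behind the other libraries is not given in the sources used here. The age of the animals is not given there either.

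Glucocorticoids are the steroid end product of the hypothalamic-pituitary-adrenal axis, which is activated by stress and brain injury. In the cytoplasm the receptor encoded by Nr3c1 is held by the HSP90 chaperone machinery. After binding the hormone it enters the nucleus, where it binds palindromic response elements and induces genes such as Fkbp5, Tsc22d3 and Klf9, and it also represses many inflammatory genes. In macrophages this programme is known for limiting cytokine production and favouring the clearance of dying cells. Several of the target genes answer to other signals too: the metallothioneins to zinc and other metals, Cdkn1a to p53, Ddit4 to hypoxia and nutrient stress, and Sgk1 to cell stress.

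Total counts ranged from 18894151 to 60665972 in the sham libraries and from 6430643 to 28672285 in the pMCAO libraries. All 10 of the macrophage markers checked were counted in every library, and their summed level was 3143 to 8526 normalised CPM in sham and 4425 to 9107 in pMCAO. Normalised CPM here are counts brought to a common library total, corrected by the trimmed mean of M-values (TMM). Genes of other cells were present as well. B and plasma cell markers summed to 823 to 24751 CPM in sham and 1128 to 27280 in pMCAO, and epithelial markers to 484 to 1141 and 161 to 1492 CPM. Eosinophil and mast cell markers summed to 1149 to 10473 CPM in sham and 251 to 3466 CPM in pMCAO. T cell markers summed to at most 353 CPM, dendritic cell markers to at most 371 CPM and the 2 neutrophil markers in the table to at most 6.23 CPM in any library. Sham replicate 5 and pMCAO replicate 4 stood apart in the X-inactivation transcript Xist, with 2237 and 4686 CPM over total counts against 1.27 to 4.88 in the other 8. These 2 are called the libraries with Xist counts below, although every library had at least 29 counts of Xist. What set these 2 libraries apart was not tested. Sham replicate 4 and pMCAO replicate 3 had the highest summed level of 10 immediate early and heat shock genes known to be induced when tissue is dissociated, 12090 and 9334 CPM against 3814 to 8245 in the other 8 libraries.

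Upstream sequence is shown for Sgk1, the member with a palindromic receptor element, and for Mt1 and Mt2, known targets of the metal-responsive factor MTF1. The glucocorticoid response element was searched in its palindromic form, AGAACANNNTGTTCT, in the 250 bases before each RefSeq transcription start (GRCm38.p6), on both strands. It occurred in 3 of 32851 windows of 27025 genes (0.00913%), of which 1 lay before an internal start of Sgk1. The metal response element core was searched as TGCACNC or TGCGCNC and was found in 21.4% of all windows, with 3 or more matches in 1.26%. Of the members, 9 had a window and 17 windows were searched. The windows are given 5′ to 3′ on the strand of the gene, the plus strand for all 3, with the matches in capitals:
Sgk1, chr10:21993640-21993889, within the gene and outside its annotated exons: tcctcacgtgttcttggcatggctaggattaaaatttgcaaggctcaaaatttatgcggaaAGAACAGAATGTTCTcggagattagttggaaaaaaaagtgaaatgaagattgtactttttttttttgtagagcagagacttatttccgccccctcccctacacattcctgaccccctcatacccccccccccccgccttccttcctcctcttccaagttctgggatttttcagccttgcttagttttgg
Mt1, chr8:94178839-94179081, directly upstream of the first exon: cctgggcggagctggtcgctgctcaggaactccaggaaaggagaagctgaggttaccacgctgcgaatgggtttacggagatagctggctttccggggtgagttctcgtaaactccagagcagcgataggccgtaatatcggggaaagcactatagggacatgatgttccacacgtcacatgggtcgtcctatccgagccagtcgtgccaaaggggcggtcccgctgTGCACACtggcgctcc
Mt2, chr8:94172368-94172617, upstream of the gene: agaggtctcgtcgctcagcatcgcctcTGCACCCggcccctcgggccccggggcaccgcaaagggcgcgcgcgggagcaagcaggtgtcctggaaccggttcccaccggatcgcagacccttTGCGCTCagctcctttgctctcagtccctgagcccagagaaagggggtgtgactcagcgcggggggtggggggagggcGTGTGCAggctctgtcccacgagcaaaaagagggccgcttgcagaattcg

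The Sgk1 match ended 174 bases before that start. The half-site AGAACA, which the palindrome holds on each strand, occurred in 16.1% of all windows, and among the members in 3 of the Sgk1 windows and 1 Tsc22d3 window. No palindrome was found in these windows of the other members, which says nothing of more distant elements. Mt2 had 3 metal element cores, of which the last is read on the opposite strand, and Mt1 had 1. The windows of Ddit4 and Hsd11b1 also held 1 each. As 21.4% of all windows held a match, the single match does not set this Mt1 window apart. Bases after the window were not searched, so the count is not that of the whole Mt1 promoter. The Mt2 window overlaps an annotated exon of the opposite strand.

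The mean level of the receptor differed by less between the groups than between libraries of 1 group. Nr3c1 was counted at 205, 261, 216, 200 and 205 normalised CPM in sham replicates 1 to 5 and at 218, 193, 175, 279 and 224 CPM in pMCAO replicates 1 to 5. The groups overlapped over most of their range, with means of 217 ± 25.3 and 218 ± 39.6 CPM (SD, n = 5 each). The log2 fold change of pMCAO over sham was 0.0026 with a standard error of 0.16 and a 95% interval of −0.34 to 0.35 (edgeR quasi-likelihood test, unadjusted p = 0.987, adjusted p = 0.999). Between libraries of the same group Nr3c1 varied little for a gene in these data: its spread on the log2 scale was larger than that of only 5.56% of the genes tested. Its 95% interval was the narrowest of the 10. With the summed epithelial markers Nr3c1 had r = −0.845 over the 10 libraries, as deviations from the group means (exact permutation p = 0.00632, adjusted p = 0.0722 over 80 relations of members with summed lists), rho = −0.60 (exact permutation p = 0.109, adjusted p = 0.349) and r = −0.752 with the 2 libraries of most extreme sums dropped. The part of epithelial cells in the Nr3c1 values was not tested.

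Of the 10 members, 0 passed an adjusted p of 0.05 in edgeR's quasi-likelihood test, in which 0 of 16949 genes (0%) passed and the smallest adjusted p was 0.922. At an unadjusted p under 0.05 there were 0 members, against 799 genes or 4.71% of those tested, of which 383 (2.26%) were higher and 416 (2.45%) lower after pMCAO. By the mean change 6 members were higher and 4 lower after pMCAO. Their median log2 fold change was 0.10 beside −0.0059 over all genes, of which 49.4% were above 0. In none of the 10 did the sham and pMCAO libraries separate without overlap, while this happened in 76 genes that were higher (0.448%) and 91 that were lower (0.537%). DESeq2 called 3 genes (0.0177%) at an adjusted p of 0.05, of which 0 were members. It gave 1 member, Ddit4, an unadjusted p under 0.05, against 1011 genes or 5.96% of those tested. In limma-voom 0 genes were called. There 2 members, Tsc22d3 and Klf9, had an unadjusted p under 0.05, against 882 genes or 5.2% of those tested. With sample quality weights it was 1 member, Klf9, against 11.1% of genes.

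**Figure D1:**
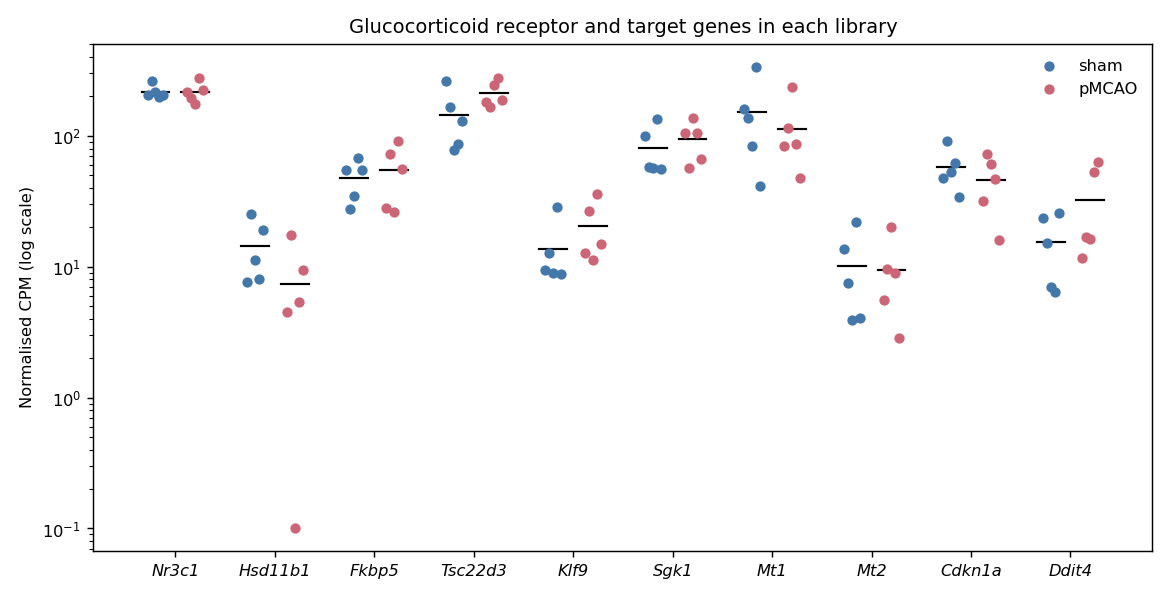
Normalised CPM of the 10 genes on a log axis, with 1 point per library, sham and pMCAO side by side and a black line at each group mean. Sham and pMCAO points overlap for all 10 genes, with the tightest points for Nr3c1 and a single low point, at 1 count, for Hsd11b1 in pMCAO replicate 3.

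Hsd11b1 encodes 11β-hydroxysteroid dehydrogenase type 1, the enzyme that regenerates active corticosterone from its inert form inside cells. It was counted at 7.61, 25.4, 11.3, 8.11 and 19.2 CPM in the sham libraries and at 4.54, 17.5, 0.101, 5.33 and 9.49 CPM in the pMCAO libraries. The value of pMCAO replicate 3 rested on 1 count; this library and pMCAO replicates 1 and 4 lay below every sham library, while the other 2 pMCAO libraries lay within the sham range. The means were 14.3 ± 7.72 and 7.40 ± 6.58 CPM. Its log2 fold change of −0.94 had a standard error of 0.74 and a 95% interval of −2.53 to 0.66 (edgeR unadjusted p = 0.227, adjusted p = 0.922), and it was below 0 in all 21 alternative fits. Without pMCAO replicate 3 or sham replicate 2 it was −0.63, without pMCAO replicate 2 it was −1.54 with an unadjusted p of 0.0658, and limma-voom gave −1.29. Hsd11b1 was the most variable member, with a spread between libraries above that of 93.8% of genes. The summed stromal and endothelial markers, whose cells also use this enzyme, ranged from 56.3 to 120 CPM in sham and from 37.7 to 89.1 CPM in pMCAO, and all 8 of them were counted in every library. Most of that sum was Pecam1, at 56.3 ± 22.1 CPM in sham and 46.6 ± 19.9 in pMCAO. Of the 8, Pdgfrb had a log2 fold change of −1.32 with a standard error of 0.58 (edgeR unadjusted p = 0.0413, adjusted p = 0.922). Over the 10 libraries, as deviations from the group means, Hsd11b1 and that sum had r = 0.841 (exact permutation p = 0.0102, adjusted p = 0.102 over 80 relations), rho = 0.55 (exact permutation p = 0.145, adjusted p = 0.415) and r = 0.522 once the 2 libraries with the most extreme sums were dropped, so the relation rests partly on those libraries. Their part in the Hsd11b1 values was not tested. In sorted bulk samples, fewer cells of a type and less RNA per cell cannot be told apart.

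Tsc22d3 encodes GILZ, a leucine zipper protein that carries part of the anti-inflammatory action of glucocorticoids in leukocytes. It was counted at 260, 167, 78.4, 86.4 and 129 CPM in sham and at 182, 167, 245, 277 and 187 CPM in pMCAO. Of the sham libraries, 4 were below every pMCAO library, replicate 2 only just, and the overlap came from replicate 1, a pool, which exceeded all but the highest pMCAO library. The group means were 144 ± 74.0 and 212 ± 47.0 CPM. On the log2 scale the change was 0.55 with a standard error of 0.31 and a 95% interval of −0.11 to 1.22 (edgeR unadjusted p = 0.0950, adjusted p = 0.922). It was above 0 in all 21 alternative fits, from 0.35 to 0.93. An unadjusted p under 0.05 came in 3 of those 21 fits. Tsc22d3 lies on the X chromosome, and without both libraries with Xist counts the value was 0.40 (edgeR unadjusted p = 0.289). Without sham replicate 3 it was also 0.40 (edgeR unadjusted p = 0.206). Leaving out both libraries highest in dissociation genes gave 0.35 (edgeR unadjusted p = 0.315). Without sham replicate 1 it was 0.88 with an unadjusted p of 0.00581 and an adjusted p of 0.986, and without both pools 0.93, with an unadjusted p of 0.00797 and an adjusted p of 1.00.

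Ddit4, also called REDD1, encodes an inhibitor of mTORC1 that glucocorticoids, hypoxia and energy stress induce. It had the largest mean difference among the members on the log2 scale, without passing the test. Levels came to 23.4, 15.1, 6.94, 6.42 and 25.7 CPM in sham and to 11.7, 17.0, 16.4, 53.1 and 62.7 CPM in pMCAO. The difference lay in pMCAO replicates 4 and 5, which were above every sham library, while replicates 1 to 3 lay within the sham range. The means were 15.5 ± 8.99 and 32.2 ± 23.8 CPM. The fitted fold was 2.08 with a 95% interval of 0.923 to 4.67, a log2 fold change of 1.05 with a standard error of 0.54 (edgeR unadjusted p = 0.0733, adjusted p = 0.922). DESeq2 gave 1.08 with an unadjusted p of 0.0352 and an adjusted p of 0.750. Without pMCAO replicate 5 the log2 fold change was 0.66, and without pMCAO replicate 4, 1 of the libraries with Xist counts, 0.79. It was above 0 in all 21 alternative fits, from 0.66 to 1.46, with an unadjusted p under 0.05 in 4 of them. The highest value came without both pools (edgeR unadjusted p = 0.0308, adjusted p = 0.9999).

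Fkbp5 and Klf9 are among the most widely induced targets of the receptor. FKBP51, the product of Fkbp5, lowers the hormone affinity of the receptor and so closes a feedback loop, and KLF9 is a transcription factor downstream of it. Fkbp5 was counted at 54.5, 27.5, 34.4, 67.9 and 55.2 CPM in sham and at 28.1, 72.6, 26.0, 91.1 and 56.1 CPM in pMCAO. In sham no library lay between 34.4 and 54.5 CPM and in pMCAO none between 28.1 and 56.1 CPM, and the 2 lowest pMCAO libraries were at the level of the lowest sham library. Its log2 fold change was 0.20 with a standard error of 0.36 and a 95% interval of −0.59 to 0.98 (edgeR unadjusted p = 0.599, adjusted p = 0.962). It was −0.071 without pMCAO replicate 4 and −0.014 without both libraries with Xist counts.

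Klf9 was counted at 9.43, 12.8, 8.96, 28.6 and 8.73 CPM in sham and at 12.8, 26.7, 11.3, 36.0 and 15.0 CPM in pMCAO. In sham a single library, replicate 4, was high, and in pMCAO replicates 2 and 4 were. The other 4 sham libraries lay between 8.73 and 12.8 CPM. The log2 fold change was 0.58 with a standard error of 0.42 and a 95% interval of −0.33 to 1.49 (edgeR unadjusted p = 0.192, adjusted p = 0.922). The value was above 0 in all 21 alternative fits, with an unadjusted p under 0.05 in 5 of them. Over all 10 libraries limma-voom gave 0.83 (unadjusted p = 0.0367, adjusted p = 0.889). With sample quality weights limma-voom gave 0.78 (unadjusted p = 0.0292, adjusted p = 0.417). The edgeR value depended strongly on single libraries. It was 1.02 without sham replicate 4 (unadjusted p = 0.0157, edgeR adjusted p = 0.708), 1.18 without both libraries highest in dissociation genes (unadjusted p = 0.00570, edgeR adjusted p = 0.632), 0.27 without pMCAO replicate 4 and 0.14 without both libraries with Xist counts. pMCAO replicate 4 had the highest pMCAO level of Nr3c1, Fkbp5, Tsc22d3 and Klf9.

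**Figure D2:**
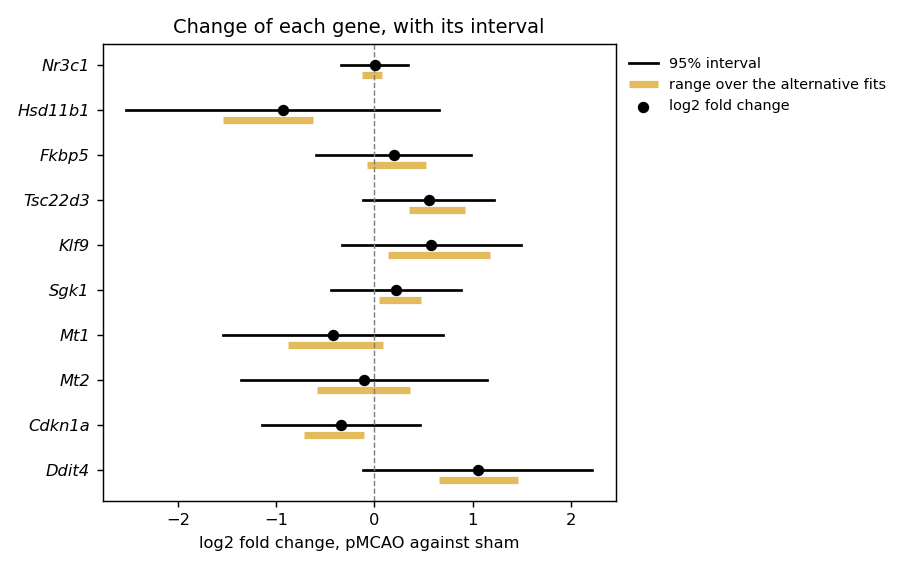
Log2 fold change of pMCAO over sham for the 10 genes, with dots for the edgeR fit, black bars for its 95% interval and yellow bands for the range over 21 alternative fits. Every interval includes 0, that of Nr3c1 is the shortest (−0.34 to 0.35), and the bands of Nr3c1, Fkbp5, Mt1 and Mt2 reach both sides of 0.

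Sgk1 encodes a kinase that regulates ion channels and FOXO factors and that responds to glucocorticoids, mineralocorticoids and cell stress. It was counted at 99.1, 57.6, 56.8, 134 and 56.1 CPM in sham and at 105, 56.9, 136, 106 and 66.6 CPM in pMCAO. The ranges were almost identical, 56.1 to 134 CPM and 56.9 to 136 CPM, and the highest library of each group was the one with the highest dissociation genes. The log2 fold change was 0.22 with a standard error of 0.31 and a 95% interval of −0.45 to 0.89 (edgeR unadjusted p = 0.485, adjusted p = 0.948). Without pMCAO replicate 3 it was 0.044 and without sham replicate 4 it was 0.47.

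Cdkn1a encodes p21, an inhibitor of cyclin-dependent kinases that p53 and glucocorticoids induce. It ranged from 34.4 to 91.6 CPM in sham, with a mean of 57.8 ± 21.5, and from 15.9 to 73.1 CPM in pMCAO, with a mean of 45.7 ± 22.7. The lowest library was pMCAO replicate 5 and the highest sham replicate 2. Cdkn1a had a log2 fold change of −0.34 with a standard error of 0.37 and a 95% interval of −1.14 to 0.47 (edgeR unadjusted p = 0.378, adjusted p = 0.935). It was below 0 in all 21 alternative fits, from −0.72 in limma-voom with sample quality weights to −0.11 without sham replicate 2. Without pMCAO replicate 5 it was −0.12 and without pMCAO replicate 2 it was −0.58.

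The metallothioneins Mt1 and Mt2 encode small cysteine-rich proteins that bind zinc and copper, and both genes are induced by metals through MTF1 and by glucocorticoids. On mouse chromosome 8 (GRCm38, GENCODE M21 annotation) they lie close together on the plus strand, Mt2 at 94172664 to 94173568 and Mt1 at 94179082 to 94180327. Mt1 was counted at 161, 138, 84.1, 336 and 41.3 CPM in sham and at 83.1, 114, 236, 86.0 and 48.1 CPM in pMCAO. Mt2 was lower, at 13.5, 7.53, 3.89, 21.8 and 4.05 CPM in sham and at 5.57, 9.62, 20.1, 8.94 and 2.88 CPM in pMCAO. For both genes the highest library of each group was again sham replicate 4 and pMCAO replicate 3.

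The mean of Mt1 was 152 ± 113 CPM in sham and 113 ± 72.2 CPM in pMCAO, with a log2 fold change of −0.42, a standard error of 0.52 and a 95% interval of −1.54 to 0.70 (edgeR unadjusted p = 0.428, adjusted p = 0.945). Without sham replicate 4 the Mt1 value was 0.083, and without pMCAO replicate 3 it was −0.88. Mt2 had means of 10.2 ± 7.60 and 9.42 ± 6.56 CPM and a log2 fold change of −0.11 with a standard error of 0.58 and a 95% interval of −1.36 to 1.14 (edgeR unadjusted p = 0.855, adjusted p = 0.989). The sign of the Mt2 value turned without sham replicate 1 (0.020), sham replicate 4 (0.36), pMCAO replicate 1 (0.028) or pMCAO replicate 5 (0.13). The ratio of Mt1 to Mt2 counts was 11.9, 18.3, 21.6, 15.4 and 10.2 in sham and 14.9, 11.9, 11.7, 9.61 and 16.7 in pMCAO, so the libraries with the most metallothionein RNA did not have extreme ratios. Exons of Mt2 overlap by 432 bases those of an annotated antisense gene that is not among the genes of the count table, and whether the counting used strand is not given in the sources used here.

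Mt1 and Mt2 varied together from library to library within the groups. As deviations of log2 CPM from the group means over 10 libraries, they had r = 0.933 (exact permutation p = 0.000556 within groups, adjusted p = 0.025 over 45 member pairs), rho = 0.95 (exact permutation p = 0.00125, adjusted p = 0.0563) and r = 0.950 once the 2 libraries with the most extreme Mt1 levels were dropped. This was the only pair with an adjusted p under 0.05 for r, and for rho no pair reached it. Fkbp5 and Klf9 had r = 0.701 (exact permutation p = 0.0419, adjusted p = 0.315) and rho = 0.55 (exact permutation p = 0.145, adjusted p = 0.652), with r = 0.585 once the 2 most extreme libraries were dropped. Sgk1 and Hsd11b1 had r = −0.704 (exact permutation p = 0.00465, adjusted p = 0.105), rho = −0.75 (exact permutation p = 0.0336, adjusted p = 0.470) and r = −0.695 with the 2 most extreme dropped. All 45 pairs share the depth and cell make-up of the same 10 libraries.

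**Figure D3:**
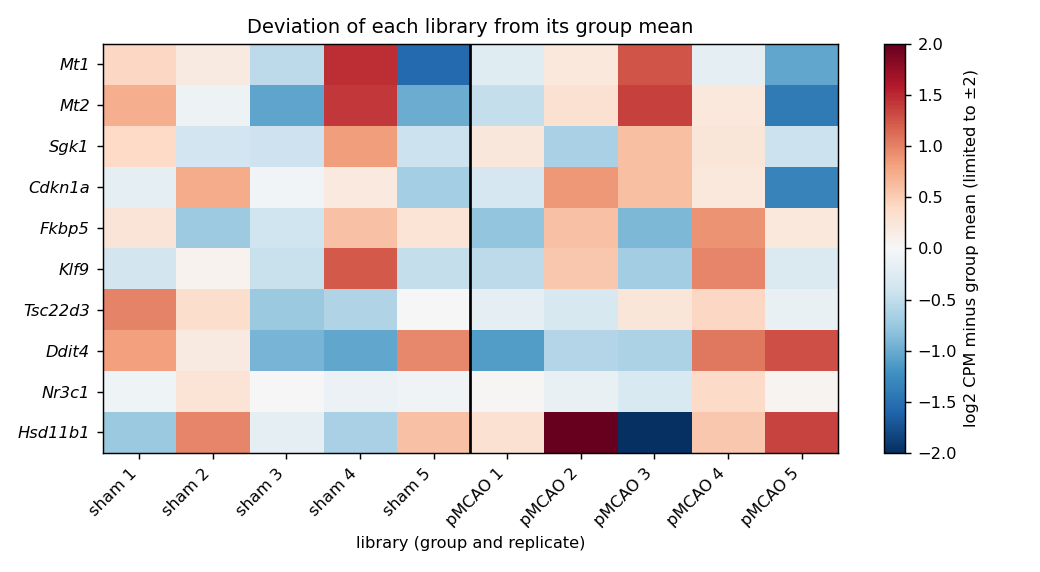
Heat map of log2 CPM of each gene (rows) in each library (columns) minus the mean of its group, with colours limited to 2 in either direction. Mt1, Mt2 and Sgk1 are above their group means in sham replicate 4 and pMCAO replicate 3, the Mt1 and Mt2 rows have the same pattern across the 10 libraries (r = 0.933), and Nr3c1 stays close to 0.

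The metallothioneins and Sgk1 had their highest levels in the libraries with the most RNA of dissociation genes. The summed level of those 10 genes, which include Fos, Jun, Egr1 and Hspa1a, was 8245, 6326, 5118, 12090 and 3814 CPM in sham and 7314, 5621, 9334, 5615 and 5260 CPM in pMCAO. Mt1 and that sum had r = 0.922 (exact permutation p = 0.00132, adjusted p = 0.0681 over 80 relations of members with summed lists), rho = 0.85 (exact permutation p = 0.00931, adjusted p = 0.298) and r = 0.818 with the 2 most extreme libraries dropped. For Sgk1 the values were r = 0.853 (exact permutation p = 0.00340, adjusted p = 0.0681), rho = 0.75 (exact permutation p = 0.0336, adjusted p = 0.298) and r = 0.662. None of the 80 relations had an adjusted p under 0.05. Mt1 and the summed eosinophil and mast cell markers had r = −0.900 (exact permutation p = 0.00257, adjusted p = 0.0681), rho = −0.80 (exact permutation p = 0.0192, adjusted p = 0.298) and r = −0.858 with the 2 most extreme dropped. Most of that sum was Mcpt1, a mast cell protease gene, at 4387 ± 3182 CPM in sham and 1213 ± 1119 in pMCAO, a log2 fold change of −1.86 with a standard error of 0.68 (edgeR unadjusted p = 0.0180, adjusted p = 0.922), and of its 4 genes in the table Prg2 was at 0 in sham replicate 4. What part the dissociation genes or these cells had in the Mt1, Mt2 and Sgk1 values was not tested.

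**Figure D4:**
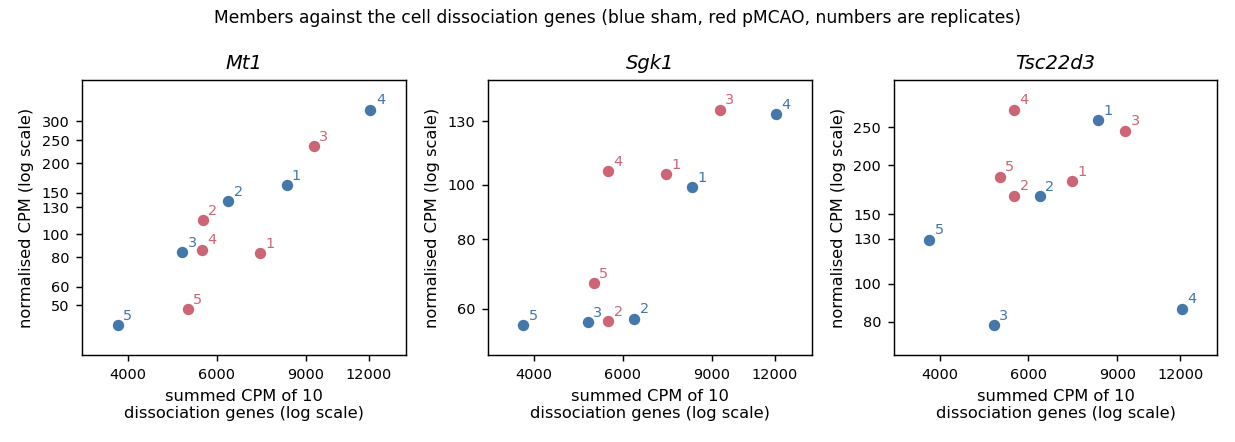
Normalised CPM of Mt1, Sgk1 and Tsc22d3 against the summed normalised CPM of 10 dissociation genes, with 1 point per library and both axes logarithmic. Mt1 and Sgk1 are highest in sham replicate 4 and pMCAO replicate 3, at sums of 12090 and 9334 CPM. Tsc22d3 is among the lowest in sham replicate 4, at 86.4 CPM. In pMCAO replicate 3 it is at 245 CPM, below only replicate 4 among the pMCAO libraries.

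Genes whose library-to-library pattern was most like that of a member were read from Pearson's r over the 10 libraries, as deviations from the group means, among 11202 genes with a mean of at least 5 CPM. For Mt1 these were Cebpb (0.975), Atf3 (0.968), Fth1 (0.960), Gadd45g (0.959) and Il10 (0.959), with Mt2 at rank 17. Atf3 is 1 of the 10 dissociation genes, Cebpb is in the list of glucocorticoid-induced genes, and Fth1 encodes the heavy chain of ferritin. For Fkbp5 they were Map3k4 (0.952), Mthfsl (0.924), Zfyve28 (0.908), Slc2a8 (0.908) and Btbd9 (0.905), with Klf9 at rank 138. The patterns most like Tsc22d3 were those of Tmc3 (0.868), Dus1l (0.863), 2310010J17Rik (0.845), Arntl (0.825) and Nudt21 (0.821), with Ddit4 at rank 183. Arntl encodes BMAL1, a core factor of the circadian clock. These values describe 10 libraries with the same depth and cell make-up for every gene, and the highest of 11202 correlations are high by selection.

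Per kilobase of exon, Mt1 was the most abundant of the 10 transcripts in both groups, at 122 ± 90.6 CPM per kb in sham and 91.0 ± 58.0 in pMCAO. It was followed by Tsc22d3, at 33.2 ± 17.0 and 48.8 ± 10.8 CPM per kb, and Nr3c1, at 28.3 ± 3.29 and 28.3 ± 5.15. The difference between Mt1 and Tsc22d3 was smaller than the SD of Mt1 in both groups, and that between Tsc22d3 and Nr3c1 was smaller than the SD of Tsc22d3 in sham only. Mt2, Sgk1, Cdkn1a and Ddit4 came next, between 8.84 and 17.3 CPM per kb in sham and between 12.9 and 19.2 in pMCAO. Within this middle group the order changed between sham and pMCAO, and neighbours lay within 1 SD of each other except Ddit4 in sham, which was more than 1 SD below Cdkn1a. Fkbp5, Klf9 and Hsd11b1 were lowest in both groups, at 5.06 ± 1.75, 2.84 ± 1.76 and 3.37 ± 1.82 CPM per kb in sham and at 5.79 ± 2.98, 4.23 ± 2.21 and 1.74 ± 1.55 in pMCAO.

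No partner of the receptor passed edgeR's test either. Of 16 chaperones, coregulators and genes of steroid handling, 8 were higher and 8 lower, 0 had an unadjusted p under 0.05 in edgeR's test, and the median log2 fold change was 0.0016. The HSP90 gene Hsp90ab1 had 894 ± 189 CPM in sham and 712 ± 140 in pMCAO, a log2 fold change of −0.33 with a standard error of 0.20. Abcb1a, which encodes a P-glycoprotein that exports glucocorticoids, had the largest difference among those with at least 5 CPM, −0.43 with a standard error of 0.37, from 28.5 ± 13.6 to 21.2 ± 9.47 CPM. The mineralocorticoid receptor Nr3c2 was counted at 2.71 ± 1.46 and 4.31 ± 2.74 CPM, and Hsd11b2, the enzyme that inactivates corticosterone, at 1.34 ± 1.17 and 2.15 ± 0.727 CPM.

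Other genes known to be induced by glucocorticoids were divided between both directions. Of 20 tested, 11 were higher and 9 lower, 0 with an unadjusted p under 0.05 in edgeR's test, and their median log2 fold change was 0.082. That median fell below 0 without sham replicate 3 (−0.073), sham replicate 5 (−0.074), pMCAO replicate 3 (−0.082) or pMCAO replicate 4 (−0.045), and without both libraries with Xist counts (−0.14). It rose to 0.21 without sham replicate 4, with 14 genes higher and 6 lower, and to 0.18 without both pools. Cd163, a haemoglobin scavenger receptor of macrophages, was 248 ± 205 CPM in sham and 499 ± 447 in pMCAO, a log2 fold change of 1.01 with a standard error of 0.62. Per1, a clock gene, had 66.4 ± 36.2 and 73.0 ± 17.9 CPM, and Dusp1, a MAP kinase phosphatase, 1368 ± 618 and 1427 ± 346 CPM, with log2 fold changes of 0.14 and 0.06. Cebpb went the other way, with a log2 fold change of −0.80 and a standard error of 0.52.

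Inflammatory genes known to be repressed by glucocorticoids had mostly lower means after pMCAO. Of 12 genes 11 were tested, of which 9 were lower and 2 higher, 0 with an unadjusted p under 0.05 in edgeR's test, with a median log2 fold change of −0.66. Il1b was 975 ± 970 CPM in sham and 486 ± 402 in pMCAO, a log2 fold change of −1.0 with a standard error of 0.72 (edgeR unadjusted p = 0.186). Cxcl10, an interferon-induced chemokine, was 74.5 ± 37.6 and 41.2 ± 20.3 CPM, a log2 fold change of −0.86 with a standard error of 0.40 (edgeR unadjusted p = 0.0511), and Tnf had 27.4 ± 11.4 and 24.3 ± 6.85 CPM. The median was −0.25 without sham replicate 4, with 4 genes higher and 8 lower, and −0.28 without both libraries highest in dissociation genes. It was −0.30 in limma-voom. In 10 of the 21 alternative fits 1 or 2 genes of the list had an unadjusted p under 0.05, all of them lower. Over all genes tested that share was 2.73% to 11.1% in the alternative fits. The other induced genes had such genes in 8 of the 21 fits, with at most 4 higher and at most 2 lower in a fit. For the integrated stress response genes it was 17 of the 21 fits. Of the markers of other cells, those of T cells had a median of −0.59, with 5 of 5 genes lower. Those of eosinophils and mast cells had −0.65 with 3 of 4 lower, and epithelium −0.49 with 7 of 10 lower. B and plasma cell markers had −0.24 with 4 of 6 lower, and stromal and endothelial markers −0.13 with 4 of 8 lower. Dendritic cell markers had 0.21 with 3 of 5 higher, and the macrophage markers 0.16 with 7 of 10 higher. The part of other cells in the values of the inflammatory genes was not tested. The dissociation genes themselves, of which 8 were lower and 2 higher, had a median of −0.19, which was 0.052 without sham replicate 4.

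In the lists for other inputs to these targets 1 gene had an unadjusted p under 0.05. Of the metal response genes 5 were tested, 3 higher and 2 lower, with a median of 0.011, and Hmox1, encoding haem oxygenase, had 49.8 ± 23.9 and 65.0 ± 59.1 CPM. Of 10 p53 targets 4 were higher and 6 lower, with a median of −0.024. Among those with at least 5 CPM Gadd45a had the largest difference, −0.39, while Mdm2, a direct p53 target, was at 163 ± 20.0 and 153 ± 13.7 CPM. In both of these lists 0 genes had an unadjusted p under 0.05 in edgeR's test. Of 9 genes tested of the integrated stress response, which also induces Ddit4, 5 were higher and 4 lower, with a median of 0.095. Its transcription factor gene Atf4 was at 137 ± 26.8 CPM in sham and 103 ± 12.4 in pMCAO, a log2 fold change of −0.42 with a standard error of 0.16 (edgeR unadjusted p = 0.0254, adjusted p = 0.922), and Slc7a11, a cystine transporter gene, had the largest difference among those with at least 5 CPM, 0.63.

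**Figure D5:**
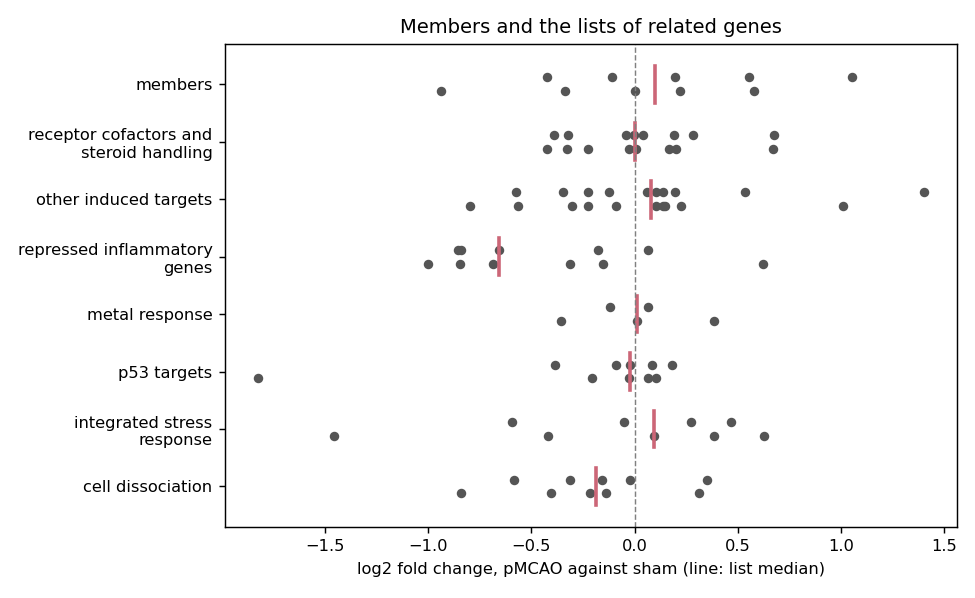
Log2 fold change of pMCAO over sham for the members and the lists of related genes (cell type markers are not shown), with 1 dot per gene and a line at the median. The medians lie close to 0 except for the inflammatory genes (−0.66) and the dissociation genes (−0.19), and each list shown has dots on both sides of 0.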

How the data were processed

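The paper read beside these data describes epithelial libraries, so processing steps come from the labels. Per the labels, the authors sorted CX3CR1-GFP+ cells, made libraries from 2 ng of RNA and deposited 1 table of 17279 genes by 10 libraries (5 sham, 5 pMCAO). The submitters' processing notes name STAR, featureCounts, limma, GRCm38 and mm10; versions and strandedness are not given in the sources used here. The deposited table holds raw counts and CPM (counts over total count). Its log2 fold change and mean expression columns and its p-value and FDR columns are the authors' own comparison and were not used. Every gene has at least 10 counts in 2 or more libraries.

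Genes were filtered by filterByExpr (16949 of 17279 kept), scaled by TMM and tested with edgeR 4.0.16 (glmQLFTest, R 4.3.3), two-sided, with Benjamini-Hochberg adjustment at 0.05. Deviations used log2 CPM with a prior count of 2. Relations between genes were tested by exact permutation of libraries within groups (14400 arrangements). Lengths are union exons of GENCODE M21. Alternatives were DESeq2 1.42.0, limma 3.58.1 (voom, with and without quality weights), other scalings and filters, a replicate block and leaving out libraries; leaving out both libraries highest in dissociation genes was chosen after seeing the data. Scripts were tested on simulated data. The members and lists were chosen with earlier results of these data known. Named were all members, and of each list of related genes those with an unadjusted p under 0.05, the largest change among genes of at least 5 CPM, and, for Fkbp5, Tsc22d3 and Mt1, the 5 genes most like them. Hsp90ab1, Nr3c2, Hsd11b2, Per1, Dusp1, Cebpb, Cxcl10, Tnf, Mdm2, Mcpt1, Pecam1 and Pdgfrb were named after their values were seen. Promoter windows are from RefSeq on GRCm38.p6, 9 of 10 members having one.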

Additional observations from a re-analysis of the deposited data

Results flagged for a closer look

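Of 20 groups checked, 10 genes in sham and in pMCAO, 1 had a library whose gap from the others passed the limit. Nr3c1 in sham replicate 2, at 261 normalised CPM, lay above the other 4 sham libraries by a gap of 0.715 of the group's range, where the 95% limit for 5 libraries is 0.71. Chance gives such a gap in about 5% of groups, which is 1 in 20. Without sham replicate 2 the log2 fold change of Nr3c1 was 0.077. Hsd11b1 in pMCAO replicate 3, at 1 count, lay below the other pMCAO libraries by a gap of 0.7099, just under the limit.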

How the results depend on the processing

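No member passed an adjusted p of 0.05 in edgeR or in any of the 21 alternative fits. The count of genes called over the whole table was 0 in each of these fits other than DESeq2, which called 3. The median log2 fold change of the members, 0.10, was −0.071 without both libraries with Xist counts and ranged from −0.084 to 0.35 (without pMCAO replicate 4 and without sham replicate 4) when single libraries were left out. Tsc22d3, Klf9, Sgk1 and Ddit4 were above 0 and Hsd11b1 and Cdkn1a below 0 in all 21; the signs of the other 4 changed. Nr3c1 was −0.0091 in limma-voom, −0.018 without both pools and −0.13 without both libraries with Xist counts, and −0.11 to 0.077 when single libraries were left out. Mt2 was 0.024 in limma-voom and 0.16 without both pools, and −0.59 to 0.36 without single libraries. Fkbp5 was −0.014 without both libraries with Xist counts and −0.071 to 0.37 without single libraries, and Mt1 −0.88 to 0.083. The cause of these changes was not tested.

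The labels do not say that a replicate number marks a shared batch. For that reason the main fit did not treat the libraries as pairs. Same-numbered libraries had correlations of 0.0463, 0.341, −0.00549, 0.232 and 0.372 in their deviations (mean 0.197), and 5 of 10 libraries correlated best with their own number, a hint of pairing in the data that 2 of the 5 numbers did not share. These values do not settle whether the libraries were paired. With a replicate block 0 genes were called, 1303 (7.69%) had an unadjusted p under 0.05 and the smallest adjusted p was 0.173. In the edgeR fit without the block that share was 4.71% and the smallest adjusted p 0.922. Of the members 0 were called and 2 had an unadjusted p under 0.05, Klf9 (0.59, p of 0.0198, adjusted p = 0.634) and Cdkn1a (−0.45, p of 0.0477, adjusted p = 0.648). The median of the members was 0.044, Nr3c1 was −0.0087 and Hsd11b1 −1.32. With 5 libraries a group the intervals of the members leave room for changes of up to 2.53 on the log2 scale (Hsd11b1, downward), and the table's depth was lowest in pMCAO replicate 1.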
